A study of Mus musculus with 4 samples.

Results

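Neural structural genes, 8 in all, were followed in mouse embryonic stem (ES) cells: Nes, Tubb3, Map2, Ncam1, Nefl, Nefm, Stmn2 and Mapt. They were taken by name, and each probe set whose annotation gives exactly 1 of these symbols was used, which gave 24 of the 45101 probe sets on the array. The rule uses no measured value, but the genes were chosen with earlier results of these data known. ES cells are self-renewing cells that can form all tissues of the embryo. RNA of each of 4 cell populations was hybridised to 1 Affymetrix mouse array. The first pair was ES cells labelled constitutive Ring1B knockout (KO) and their wild-type control. The second pair was ES cells labelled conditional Ring1A/B double KO at day 4, made with OHT because a lasting double KO could not be kept in culture, and the control of that line, also labelled wild-type. Ring1A and Ring1B (gene symbols Ring1 and Rnf2) are the catalytic RING-finger proteins of Polycomb repressive complex 1, which marks histone H2A with ubiquitin and keeps many developmental genes silent. The labels used here give no strain, passage or clone number, and whether the second control received OHT is not given in them.

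The 8 genes encode parts or regulators of the neuronal skeleton and surface. Nestin (Nes) is an intermediate filament protein of dividing neural progenitors, and is also made in some muscle, endothelial and other progenitor cells. The neurofilament light and medium chains (Nefl, Nefm) replace it in maturing neurons and set the calibre of axons. Tubb3 is the beta-tubulin found mainly in neurons, Map2 and Mapt (tau) are related proteins that bind and stabilise microtubules in dendrites and axons, Stmn2 (SCG10) binds free tubulin and promotes microtubule turnover in growth cones, and Ncam1 is an adhesion molecule of the immunoglobulin family. Nefl and Nefm lie next to each other in the genome with no protein-coding gene between them in the RefSeq table.

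Promoter windows were held in the RefSeq table (build GRCm38.p6, gene strand) for 3 of the 8 genes, and the 250 bases before the start site of each are shown for that reason. On the array labelled double KO, Tubb3 was brighter than on its control, 1 Nes probe set was dimmer and Map2 was at a like level. Capitals mark each CG, the dinucleotide that is dense at many Polycomb-bound promoters.
Tubb3, chr8:123411303-123411552, plus strand: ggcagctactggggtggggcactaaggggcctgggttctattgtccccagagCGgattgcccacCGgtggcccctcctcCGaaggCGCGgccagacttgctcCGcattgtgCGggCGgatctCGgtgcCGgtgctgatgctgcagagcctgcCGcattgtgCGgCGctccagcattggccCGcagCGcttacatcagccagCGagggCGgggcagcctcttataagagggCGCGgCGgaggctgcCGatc
Nes, chr3:87970843-87971092, plus strand: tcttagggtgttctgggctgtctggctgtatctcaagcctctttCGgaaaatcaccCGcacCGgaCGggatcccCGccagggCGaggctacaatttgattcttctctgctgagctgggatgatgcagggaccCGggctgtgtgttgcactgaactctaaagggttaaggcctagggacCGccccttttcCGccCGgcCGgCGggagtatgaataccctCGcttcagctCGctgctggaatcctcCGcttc
Map2, chr1:66175079-66175328, plus strand: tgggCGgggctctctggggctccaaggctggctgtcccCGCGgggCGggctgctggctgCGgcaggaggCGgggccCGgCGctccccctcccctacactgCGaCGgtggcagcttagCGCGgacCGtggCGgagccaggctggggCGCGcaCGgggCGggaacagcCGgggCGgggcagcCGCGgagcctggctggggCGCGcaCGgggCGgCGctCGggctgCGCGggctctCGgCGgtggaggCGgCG
The windows hold 21, 15 and 34 CG in that order, against a median of 6 over 32851 windows in the table. Windows with at least as many CG make up 16.3%, 27.3% and 3.53% of the table. The GC box GGGCGG, counted on both strands and itself containing a CG, occurs 2 times, 2 times and 5 times, and 32.7% of all windows hold it. TATAAA, present in 12.4% of windows, occurs in none of the 3. The half-site TTCAGCACC of the element bound by the neuronal gene repressor REST was also searched on both strands and is not in these windows. It is rare everywhere, in 0.301% of windows. These matches describe letters and not binding.

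Values are MAS5 signals, scaled so that the 2%-trimmed mean of every array is 277. Signals were floored at 36.6, the 40th percentile of named probe sets, before log2 was taken. A log2 difference of 1 is 2-fold. A fold written with "at least" is a lower bound, because the dimmer array lies below the floor. Each group is 1 array, so no spread within a group exists, no test was made and every difference below is between individual arrays. The number of arrays limits the precision. The ES cell label fits all 4 arrays, since 12 of 12 ES cell markers were above the floor on each. The labelled knockouts could not be checked from their targets. At its brightest probe set Rnf2 read 2579.7 and 2775 on the Ring1B control and Ring1B KO arrays, and 2182 and 1986 on the double KO control and double KO arrays. Ring1 read 146, 164, 44.7 and 55.6 in the same order. The other Rnf2 probe sets above the floor gave log2 differences of 0.16, −0.21 and 0.93 in the Ring1B pair. In the double KO pair they gave −0.18, −0.40 and 0.46. Probe sets outside a deleted part check nothing, and their position is not known here. The values therefore do not settle whether the KO and control labels within a pair are the right way round, and several lists described further on had opposite directions in the 2 pairs. Arrays are called by their labels, and each KO direction given, in the double KO pair above all, rests on those labels and would turn with exchanged ones. The controls themselves differed at least 2-fold at 21.5% of named probe sets, against 5.40% within the Ring1B pair and 11.3% within the double KO pair, with the pairs deposited at different scales.

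Of the 24 probe sets, 11 were above the floor on all 4 arrays, 6 on 1 to 3 arrays and 7 on none. The 7 without a usable signal were 4 of the 7 for Ncam1, 2 of the 4 for Map2 and 1 of the 3 for Nes. Every gene had at least 1 probe set above the floor on 3 or more arrays. Levels of different genes cannot be ranked, because each probe set has its own response.

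**Figure D1:**
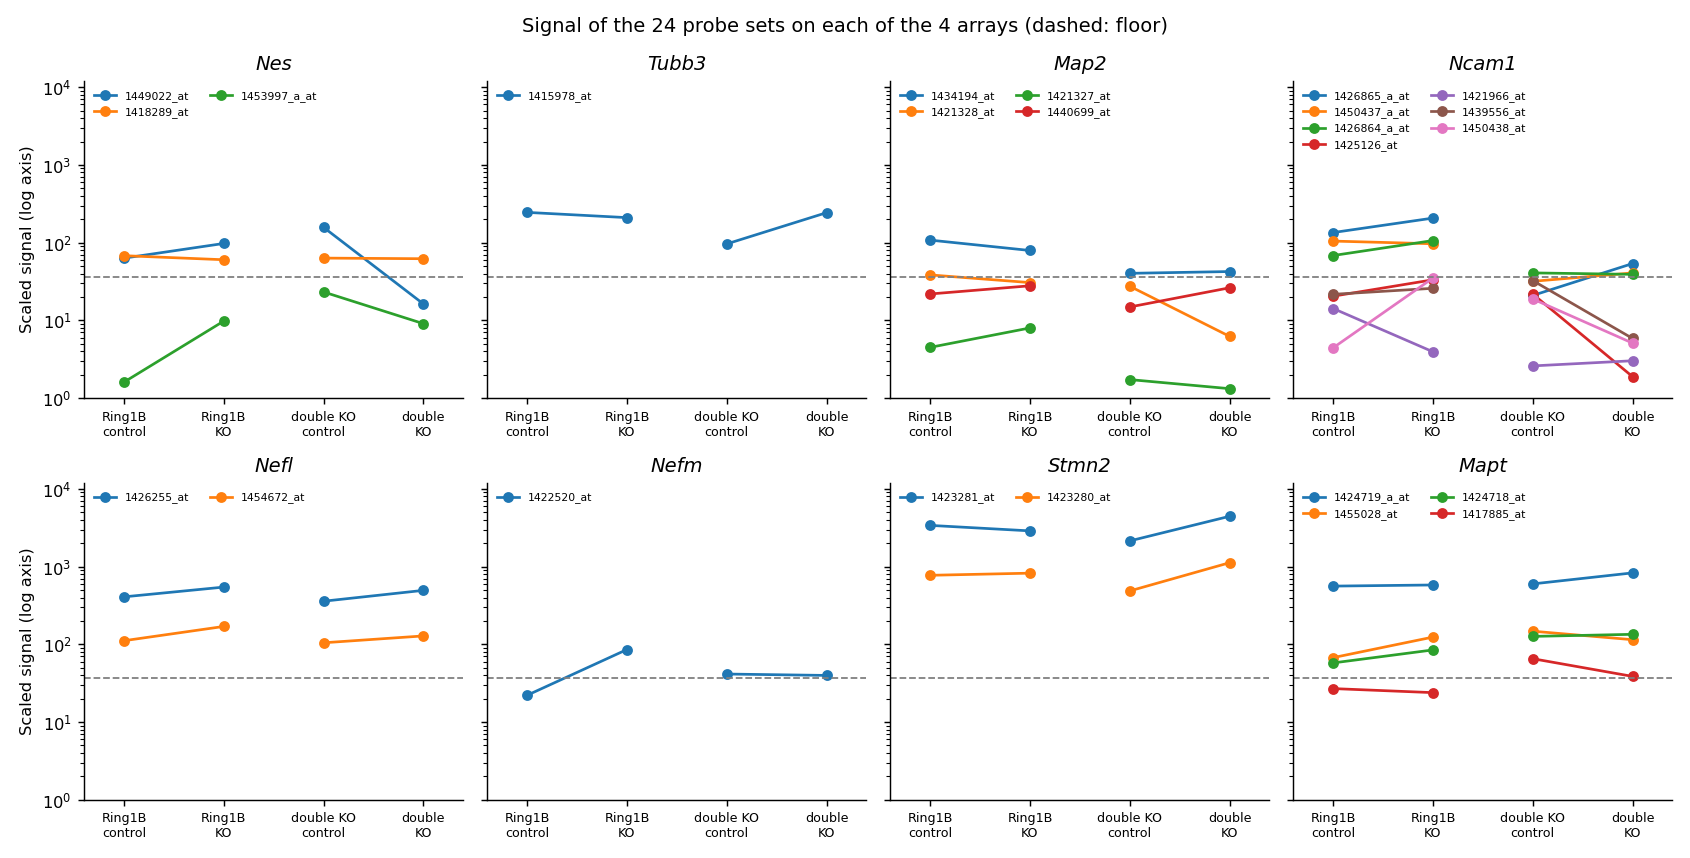
Scaled signal (log axis) of the 24 probe sets on the 4 arrays, 1 panel per gene; each point is 1 array, lines join the arrays of a pair and the dashed line is the floor of 36.6. Tubb3 and both Stmn2 probe sets are higher on the double KO array than on its control, 1 Nes probe set drops below the floor there, and Nefm crosses the floor within the Ring1B pair.

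In the array labelled double KO, the 3 probe sets of Tubb3 and Stmn2 had at least 2-fold higher signals than in its control, and 1 Nes probe set had an at least 4.28-fold lower one. These 4 were among 16 member probe sets above the floor on at least 1 array of the pair. Over all named probe sets, 2.88% were higher by 2-fold or more and 8.37% lower by as much in this comparison. The higher side is thus 3 of 16 against 2.88%, with 2 of the 3 reading the same gene, and the lower side 1 of 16 against 8.37%. The median log2 difference of the 16 was 0.12, beside −0.0434 for all 22284 named probe sets above the floor. Of the 16, 10 were higher and 6 lower at any size, but 3 of the lower (Nes 1418289_at, Nefm and Ncam1 1426864_a_at) turned to higher after quantile normalisation and with a common median. Over all named probe sets, the count at least 2-fold apart, unlike the any-size split just given, was 641 higher and 1866 lower. It depends on the scaling, with 861 and 1428 after quantile normalisation and 1109 and 1459 after scaling to a common median. The common median moves the median of named probe sets above the floor on both arrays from −0.0165 to 0.16.

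Tubb3, the neuronal beta-tubulin, has 1 probe set (1415978_at). Signals of 245 on the Ring1B control, 210 on the Ring1B KO, 96.2 on the double KO control and 243 on the double KO array were read. Only the double KO control was low, and the other arrays lay within 1.17-fold of each other. The double KO array was 2.52-fold above its own control (log2 difference 1.34) and at the level of the Ring1B control, 1.01-fold below it. The control arrays differed by −1.35, as much as the double KO pair. The double KO difference shrank to 0.94, under 2-fold, when the floor was raised to the 60th percentile.

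Stmn2, the tubulin-binding stathmin of growth cones, was read by 2 probe sets that ordered the arrays alike in the double KO pair. The brighter (1423281_at) read 3392 and 2882 on the Ring1B control and KO arrays and 2141 and 4438 on the double KO control and double KO arrays. The other (1423280_at) read 773 and 823, then 486 and 1121. In both the double KO array was the highest of the 4 and its control the lowest. The differences within that pair were 2.07-fold (1.05) and 2.31-fold (1.21). Against the Ring1B control the double KO array was 1.31-fold and 1.45-fold higher, so the direction, though not the 2-fold size, was the same against either control. The brighter probe set fell just short of 2-fold after quantile normalisation (0.96) and as deposited (0.93). Within the Ring1B pair the probe sets went opposite ways by small amounts (−0.24 and 0.0911).

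Nes, the progenitor filament gene, gave unlike answers at its probe sets. Probe set 1449022_at gave 63.2 on the Ring1B control, 97.6 on the Ring1B KO, 157 on the double KO control and 16.2, below the floor, on the double KO array. This is at least 4.28-fold lower than its control and at least 1.73-fold lower than the Ring1B control. A floor raised to the 60th percentile shrank the first bound to a log2 difference of −0.31. Probe set 1418289_at gave 67.9, 60.2, 63.2 and 62.0 over the arrays in that order, all within 1.13-fold of each other. The remaining probe set, 1453997_a_at, was below the floor on all arrays. The double KO value of Nes thus rests on a single dim probe set, and the mean over its 3 probe sets was −0.71. Transcript regions read by these probe sets were not compared here.

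Mapt, which encodes tau, likewise differed by probe set. The brightest, 1424719_a_at, read 561, 580, 599 and 830 on the Ring1B control, Ring1B KO, double KO control and double KO arrays, with only the double KO array raised (1.39-fold above its control and 1.48-fold above the Ring1B control). Probe set 1424718_at gave 57.6, 84.7, 126 and 134, and 1455028_at gave 67.4, 124, 147 and 115. At these 2 the Ring1B control was the lowest array, 2.19-fold below the double KO control at each. The dim 1417885_at was above the floor only in the double KO pair, at 65.3 and 38.7. In the double KO comparison the log2 differences of the 4 probe sets were 0.47, 0.0888, −0.36 and −0.76, of which the second turned to −0.0379 as deposited. The mean over them was −0.14, so the direction for the gene depends on the probe set taken.

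The neurofilament genes differed little in the double KO comparison. Nefl had 2 probe sets that ordered the 4 arrays alike. Its brighter one, 1426255_at, read 408 on the Ring1B control, 545 on the Ring1B KO, 359 on the double KO control and 495 on the double KO array. The other, 1454672_at, read 111, 170, 105 and 128. Each KO array was above its own control, by 1.34-fold and 1.53-fold in the Ring1B pair and by 1.38-fold and 1.23-fold in the double KO pair, and the controls were within 1.14-fold of each other. Nefl was thereby the gene whose KO differences pointed the same way at every probe set in both comparisons and under each scaling and floor tried, at sizes under 2-fold. At 1454672_at, however, the double KO difference fell to 0.0191, nearly none, with the floor at the 60th percentile. Its neighbour Nefm, read by 1 probe set (1422520_at), gave 22.1 on the Ring1B control, below the floor, 85.7 on the Ring1B KO, 41.4 on the double KO control and 39.8 on the double KO array. The difference within the double KO pair was −0.0590, and turned to 0.15 after quantile normalisation and 0.13 with a common median.

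Map2 and Ncam1 separated the pairs of arrays more than the members of a pair. The brightest Map2 probe set (1434194_at) read 108 on the Ring1B control and 79.2 on the Ring1B KO, but 40.2 and 42.4, near the floor, on the double KO control and double KO arrays. The double KO control was 2.68-fold below the Ring1B control, whereas the double KO pair differed by 1.05-fold. Map2 1421328_at was above the floor only on the Ring1B control, at 38.4. For Ncam1, the brightest probe set (1426865_a_at) gave 135 and 207 in the Ring1B pair and 20.9, below the floor, and 53.7 in the double KO pair. The double KO array was at least 1.47-fold above its control, a bound that became 1.36 on the log2 scale, past 2-fold, once the floor was lowered to the 20th percentile. Ncam1 1450437_a_at read 105, 96.6, 31.8 and 40.7, and 1426864_a_at read 68.2, 106, 40.8 and 39.0. At all 3 both arrays of the Ring1B pair were above both arrays of the double KO pair. The double KO difference at 1426864_a_at was −0.0624 and turned to 0.14 after quantile normalisation and 0.13 with a common median.

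In the array labelled Ring1B KO, Nefm was the only member at least 2-fold from its control, at least 2.34-fold higher (22.1 to 85.7), and no member was at least 2-fold lower. That is 1 of 16 probe sets above the floor, where 2.88% of all named probe sets were at least 2-fold higher and 2.51% lower. With the floor at the 60th percentile neither array of this pair had a Nefm signal above it and the call was lost, and under the other settings the log2 difference lay between 1.13 and 1.95. The Nefm value on the Ring1B KO array was also 2.07-fold above the double KO control. The member median was 0.25, beside −0.0260 for all 22603 named probe sets above the floor, with 10 probe sets higher and 6 lower. Next in size were Mapt 1455028_at (0.88), Ncam1 1426864_a_at (0.64), Nes 1449022_at (0.63), Ncam1 1426865_a_at (0.62), Nefl 1454672_at (0.61) and Mapt 1424718_at (0.56). On the lower side were Map2 1434194_at (−0.44), Stmn2 1423281_at (−0.24), Tubb3 (−0.22), Nes 1418289_at (−0.17), Ncam1 1450437_a_at (−0.11) and the near-floor Map2 1421328_at (a bound of −0.0700). All under 2-fold, Nefl was higher at both probe sets (0.42 and 0.61), and the microtubule genes Tubb3 (−0.22) and Map2 (−0.44 at its brightest) were lower. The microtubule genes did not share a direction, since Mapt was higher at each probe set with a value (0.0481, 0.88 and 0.56). Stmn2 was split (−0.24 and 0.0911).

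**Figure D2:**
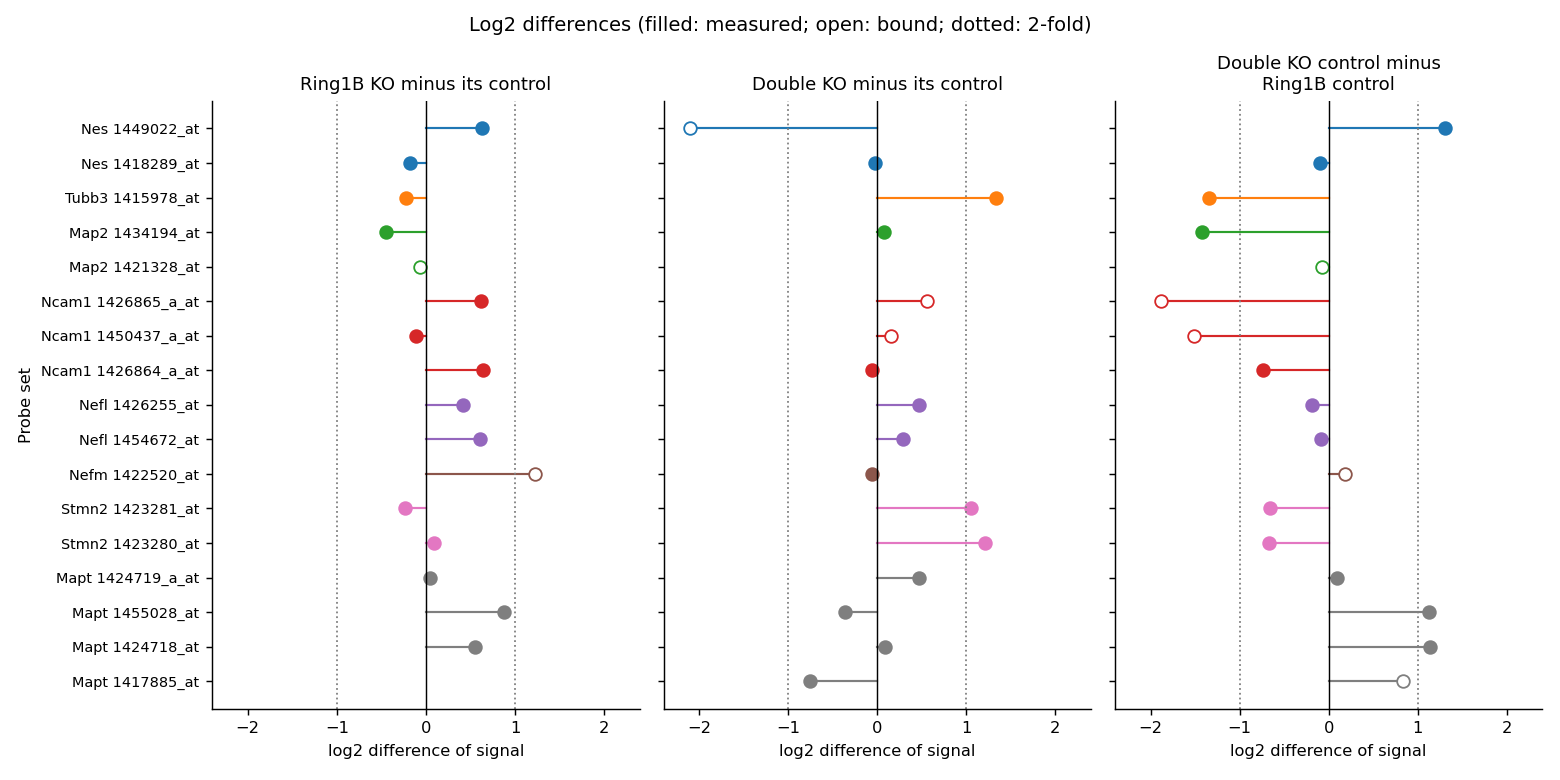
Log2 difference of signal for the 17 probe sets above the floor on at least 1 array, in the Ring1B comparison, the double KO comparison and between the control arrays; filled points are measured, open points are bounds and dotted lines mark 2-fold. Nefm alone passes 2-fold on the left, while Tubb3, Stmn2 and 1 Nes probe set do so in the middle, and 7 probe sets do so between the controls.

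Between the controls, 7 of 17 member probe sets were at least 2-fold apart. On the double KO control 3 were higher (Nes 1449022_at at 2.48-fold, Mapt 1424718_at and 1455028_at at 2.19-fold each) and 4 lower (Tubb3 at 2.55-fold, Map2 1434194_at at 2.68-fold, Ncam1 1426865_a_at at at least 3.68-fold and 1450437_a_at at at least 2.86-fold). All named probe sets gave 10.1% higher and 11.4% lower in this comparison. The KO difference was larger than the difference between controls at 4 of 16 member probe sets in the Ring1B pair (Nes 1418289_at, Nefm and both of Nefl) and at 6 of 16 in the double KO pair (Nes 1449022_at, Mapt 1424719_a_at, both of Nefl and both of Stmn2). Over all named probe sets the shares were 30.5% and 37.2%. The comparison between controls shares an array with each KO comparison, so a low or high control enters both.

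**Figure D3:**
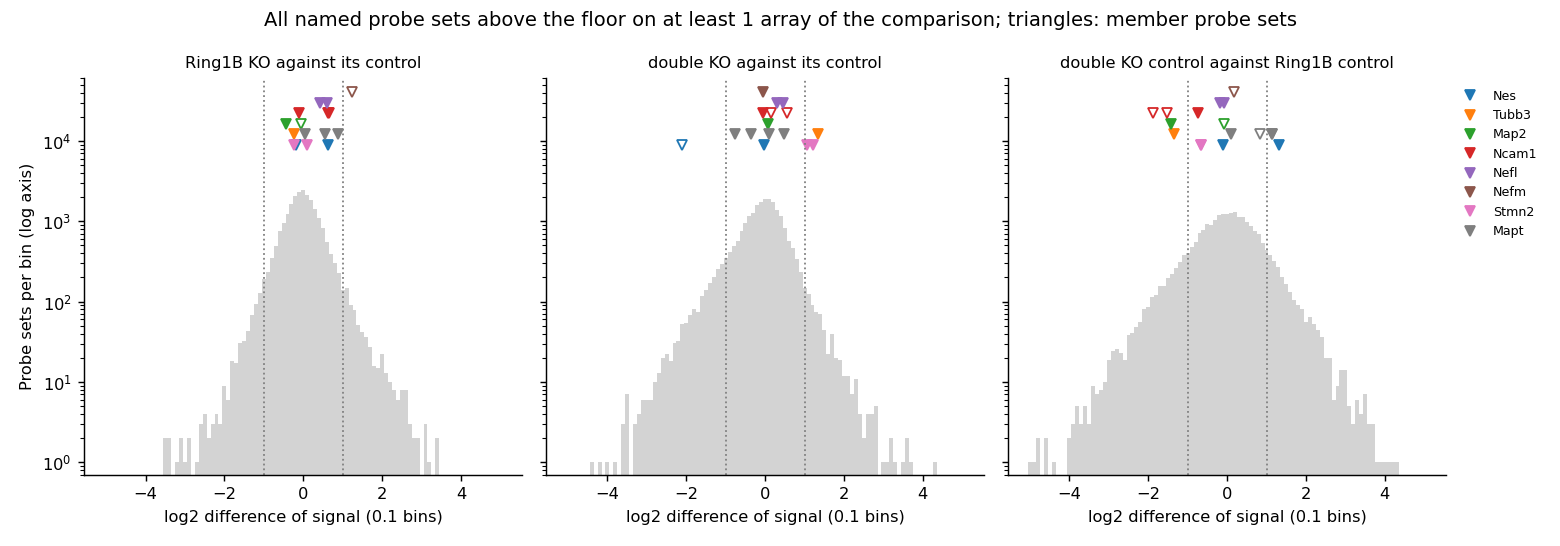
Number of named probe sets (log axis) by log2 difference in bins of 0.1, for the 3 comparisons, with member probe sets as triangles at heights chosen for legibility; open triangles are bounds and dotted lines mark 2-fold. The members lie mostly within the bulk of all probe sets, and the distribution between the controls is the widest, with 21.5% of probe sets past 2-fold.

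Other parts of the same machinery were set beside the members, with 1 probe set per gene. Over all genes above the floor, 3.57% were higher by 2-fold or more and 2.60% lower in the Ring1B comparison, and 3.0% higher and 10% lower in the double KO comparison. Over 10 other intermediate filament genes with a measurable signal in the double KO pair, 3 were at least 2-fold lower and 1 higher on the double KO array, with a median of −0.41. The neurofilament heavy chain gene Nefh was 2.53-fold lower (474 to 187), desmin (Des) 2.43-fold and lamin A (Lmna) 2.17-fold lower, and the neuronal filament gene Ina was 2.17-fold higher (253 to 550). On the Ring1B KO array Nefh was instead 2.96-fold higher (171 to 505) and Ina 2.44-fold lower (650 to 266), so these neighbours of Nefl and Nefm in function had opposite signs in the 2 comparisons. Synm was 2.07-fold lower there. The median of the 11 measured in that comparison was −0.23. Nefh and Ina differed by 1.47 and −1.36 between the controls.

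Of 11 tubulin genes outside the members with a signal in the double KO pair, Tuba1a, the alpha-tubulin abundant in young neurons, was 2.66-fold higher (1504 to 4004) and Tubb2a was 2.74-fold lower (464 to 169), with a median of 0.17. None of 10 was 2-fold apart in the Ring1B pair (median −0.15), where the largest on the lower side was Tube1 at −0.56 and on the higher side Tubb6 at 0.10. Tuba1a, like Tubb3 and Stmn2, was lowest on the double KO control, at 1504 against 7277 on the Ring1B control. Among 22 microtubule regulators, 3 were at least 2-fold higher on the double KO array: Stmn3, a relative of Stmn2, at least 3.41-fold, Crmp1, a collapsin response mediator, 2.58-fold (245 to 631) and the axonal kinesin gene Kif1a 2.01-fold. Dpysl5 was 2.28-fold lower, and the median was 0.00741. In the Ring1B pair Kif5c (2.44-fold) and Stmn3 (2.13-fold) were lower and none of 23 was higher, with a median of −0.0825. Neural adhesion genes beside Ncam1 gave 2 of 7 lower in the double KO pair, Alcam at least 3.86-fold and L1cam 2.59-fold, with a median of −0.23, and none of 9 in the Ring1B pair was 2-fold apart (median 0.30).

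Neural identity genes did not share a direction in the double KO comparison. Of 10 progenitor markers 2 were at least 2-fold higher (Olig1 2.56-fold, Slc1a3 2.02-fold) and 2 lower (Pax6 3.0-fold, Neurog1 at least 2.19-fold), with a median of −0.00219. In the Ring1B pair 2 of 11 were lower (Olig1 2.74-fold, Prom1 2.07-fold), with a median of −0.35. Of 13 neuron markers Neurod1 was 2.21-fold higher in the double KO pair, and Isl1 (at least 3.53-fold) and Nsg1 (3.07-fold) were lower, with a median of −0.20. The Ring1B pair had Eno2 2.09-fold higher and Neurod1 7.33-fold lower among 16, with a median of −0.25. Neurod1 read 42.0 and 92.6 in the double KO pair against 1004 on the Ring1B control, and the controls differed 23.9-fold. Summed signals of the 20 neuron markers were 4361 and 2976 in the Ring1B pair and 2392 and 2158 in the double KO pair. In the Ring1B pair most of the fall lay in Neurod1 (1004 to 137) and Elavl2 (1111 to 694). Above the floor were 14 and 12 genes in the Ring1B pair and 12 and 11 in the double KO pair. Below the floor on all 4 arrays were the neuron markers Snap25 (a synaptic fusion protein), Slc17a6 (a glutamate transporter) and Scg2 (a secretory granule protein). The microtubule gene Dcx of migrating neurons was below it too. These genes were picked after their values were seen. Other neuron markers, among them Elavl2 and Celf5 (349, 219, 258 and 176), were above the floor on all 4 arrays. Glia markers, 4 to 5 of 8 above the floor, had Mbp 4.28-fold and Sox10 at least 2.29-fold lower in the double KO pair (median −0.69) and none 2-fold apart in the Ring1B pair (median 0.23). Repressors of neuronal genes were above the floor at 10 of 10 members. Under the main scaling none was 2-fold apart in either pair, with medians of 0.0620 and 0.12. Rest read 2577 and 2037 in the Ring1B pair and 2751 and 5112 in the double KO pair, differences of −0.34 and 0.89. Scaling to a common median, which raised Mapt 1424719_a_at from 0.47 to 0.66 in the double KO pair, would take Rest past 2-fold there.

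Markers of other cells moved within both pairs. Nes 1449022_at, Mapt 1455028_at, Nefm and Ncam1 1426864_a_at had the same directions, the last 2 at −0.06 in the double KO pair. Those 2 turned to higher there after quantile normalisation and with a common median. Ncam1 1450437_a_at had the opposite directions. Nes 1418289_at was nearly flat (−0.17 in the Ring1B pair and −0.027 in the double KO pair). Of 16 fibroblast markers 12 were at least 2-fold lower on the double KO array and none higher, and their summed signal over 17 genes was 19510 and 28506 in the Ring1B pair and 8512 and 3745 in the double KO pair. Of 11 endoderm markers 7 were at least 2-fold lower there, with summed signals of 8785, 26897, 13941 and 5586 over the 4 arrays in the same order. In the Ring1B pair 11 of 13 endoderm markers and 1 of 16 fibroblast markers were at least 2-fold higher. No fibroblast or endoderm marker was listed at 0, and 13 of 17 and 7 of 14 were above the floor on the double KO array. ES cell markers had a median of 0.66 in the double KO pair, with summed signals of 52889 and 69750. Their median was −0.26 in the Ring1B pair, with 64660 and 54445. Tubb3, Map2 1434194_at, Ncam1 1450437_a_at and Stmn2 1423281_at had that direction in each pair, but not alike in size. In the Ring1B and double KO pairs Tubb3 differed by −0.22 and 1.34, and Stmn2 1423281_at by −0.24 and 1.05. Map2 1434194_at, near the floor in the double KO pair, differed by −0.44 and 0.0764. Ncam1 1450437_a_at differed by −0.11 and a bound of 0.155. Of 15 member probe sets with a value in both comparisons, 8 had opposite signs and 7 the same under the main scaling. The share over all named probe sets was not computed, so these counts cannot be read as a trait of the members. The part of the marker shifts in the members' values was not tested. In such bulk RNA fewer cells of a type cannot be told apart from less RNA per cell.

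**Figure D4:**
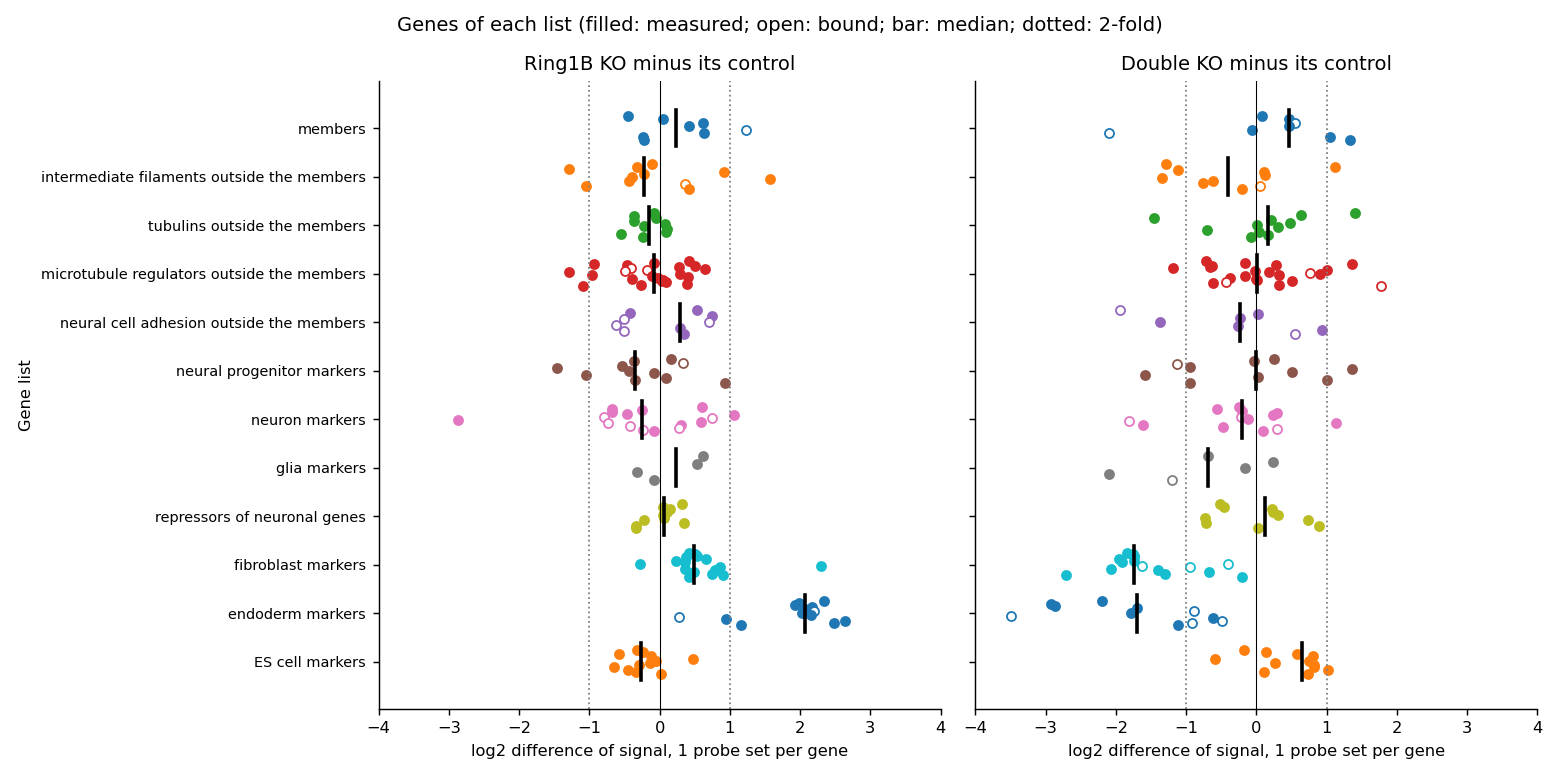
Log2 difference of signal for each gene of the 12 lists, 1 probe set per gene, in the Ring1B pair and the double KO pair; filled points are measured, open points are bounds, black bars are medians and dotted lines mark 2-fold. The neural and cytoskeletal lists have medians between −0.41 and 0.47 leaving aside glia, while the fibroblast and endoderm medians of the double KO pair lie at −1.73 and −1.70.

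Profiles over the 4 arrays were compared with those of 10024 other genes above the floor on all of them, for members whose brightest probe set was above the floor on all 4 arrays and ranged over at least 1 on the log2 scale. Tubb3, Map2 and Stmn2 met this. The measure is the root mean square distance between log2 profiles, each centred on its own mean. Nearest to Tubb3 were Map2k6 (distance 0.0402), Elf1 (0.0538) and Mageh1 (0.0596). Map2k6 read 253, 205, 99.1 and 236 on the Ring1B control, Ring1B KO, double KO control and double KO arrays, the same low double KO control as Tubb3. Nearest to Map2 1434194_at were Zfp367 (0.0189), Pfdn2 (0.0348) and Gas2l3 (0.0566), and nearest to Stmn2 1423281_at were Nqo2 (0.0588), Cep128 (0.0602) and B3galt6 (0.0613). With 4 arrays such close profiles are a description of these arrays.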

How the data were processed

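The deposited values are MAS5 signal intensities on a linear scale, 1 per probe set and array, computed by the authors per the submitters' processing notes; version and settings are not given in the sources used here. Per the labels' protocols, column-purified RNA was amplified in 1 cycle and labelled with biotin. Of 45101 probe sets, 2 values were listed as 0 and 64 probe sets are the manufacturer's controls, which were not named. The platform annotation gave 34945 probe sets 1 symbol, 932 several and 9224 none. No member symbol stood on a probe set with several symbols.

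The 2%-trimmed mean as deposited was 500.0 on both arrays of the Ring1B pair and 160 and 147 in the double KO pair. Each array was multiplied by 0.554, 0.554, 1.73 and 1.89 in that order to reach 277. This assumes a like summed signal per array. Signals were floored at 36.6 and taken to log2, which shrinks differences of dim genes. For lists, the probe set with the highest mean log2 signal stood for each of 18193 genes. Some genes of the lists are not reported here. Vim and Gfap stand in 2 lists each.

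The members, lists and rules were chosen with earlier results of these data known. All members are named. From each other list, at most 3 genes per direction and comparison could be named, by size; Snap25, Dcx, Slc17a6 and Scg2 are named beyond this and were picked after their values were seen. The 3 nearest profiles were named for each of the 3 members above the floor on all arrays with a log2 range of at least 1. No test was possible with 1 array per group. Alternatives were other scalings, floors at the 20th and 60th percentile, a pseudocount of 16, leaving out shared probe sets and the mean over probe sets. The steps were tested on simulated data. Changes were put only into bright probe sets of the double KO array, so changes near the floor were not tried. Calculations used Python 3.11.15, numpy 2.4.6 and pandas 2.3.3.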

Additional observations from a re-analysis of the deposited data

Results flagged for a closer look

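Member probe sets that were at least 2-fold apart in 1 KO comparison and had the opposite sign in the other are listed here. The difference between the comparisons was not tested, since each comparison rests on 2 arrays. Nes 1449022_at differed by −2.10 (a bound) in the double KO comparison and by 0.63 in the Ring1B comparison. Tubb3 1415978_at differed by 1.34 and −0.22, and Stmn2 1423281_at by 1.05 and −0.24. Nefm 1422520_at differed by −0.0590 and 1.23 (a bound); its double KO sign turned after quantile normalisation (0.15) and with a common median (0.13).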

How the results depend on the processing

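The floor moved the member counts of both KO comparisons. Set at the 20th percentile, at the 60th percentile or replaced by a pseudocount, the count of member probe sets at least 2-fold higher in the Ring1B comparison went from 1 to 2, 0 and 2, and that at least 2-fold lower in the double KO comparison from 1 to 3, 0 and 3. Over all named probe sets the latter count went from 1866 to 3756, 730 and 2828. The count of 3 member probe sets higher in the double KO comparison lay between 2 and 4 under these and the other settings, and none was at least 2-fold lower in the Ring1B comparison under any. Between the controls, 3 higher and 4 lower became 0 and 0 under a floor at the 60th percentile and 0 and 11 as deposited, where the pairs differ in scale. As deposited, Mapt 1424718_at and 1455028_at turned to −0.51 each and Nes 1449022_at to −0.33 in that comparison. Its member median turned from −0.10 to 0.0276 with a common median. Of the members' single values under the alternatives, 286 stayed on their side of 2-fold, 9 passed it, 10 fell short, and 3 that had been past 2-fold changed sign. At any size the sign turned 7 times in the KO comparisons, all under another scaling in the double KO pair, and 10 times between the controls, where Mapt 1424719_a_at went from 0.0937 to −1.55 as deposited. No member probe set is of the shared kinds (_s_at and _x_at), so leaving those out changed nothing for the members. Of the list genes named, Tuba1a, Tubb2a, Stmn3 and Mbp were read by such probe sets. No paired analysis was possible because each group holds 1 array. Detection was judged by the floor alone, and saturation was not assessed.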
